A study of Arabidopsis thaliana with 38 samples.

Results

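Expansins are wall proteins that loosen the primary cell wall at acid pH and let growing cells enlarge, without cutting the wall's polymers. The α-expansins (EXPA) and β-expansins (EXPB) are known for this activity, while it has not been shown for the expansin-like A and B proteins (EXLA, EXLB). In leaves they act while cells enlarge, and different members serve different cells, such as EXPA1 in the opening of guard cells and EXPA7 and EXPA18 in root hairs. The 10 genes described here are 8 α-expansins, EXPA1 (AT1G69530), EXPA3 (AT2G37640), EXPA4 (AT2G39700), EXPA5 (AT3G29030), EXPA6 (AT2G28950), EXPA8 (AT2G40610), EXPA10 (AT1G26770) and EXPA11 (AT1G20190), and the expansin-like genes EXLA1 (AT3G45970) and EXLA2 (AT4G38400). They were chosen by name among the 27416 genes of the count tables, with earlier results of these data known. EXLA1 was also chosen for its higher level in H3.1S28A, so its values in that comparison and in the difference between the comparisons are given as a description with no test.

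The study sequenced poly(A) RNA of Arabidopsis thaliana to learn what replacing serine 28 of histone H3 by alanine does to the transcriptome. The 4 genotypes, H3.1 with its counterpart H3.1S28A, and H3.3 with its counterpart H3.3S28A, are named for the replication-coupled histone H3.1 or the replication-independent histone H3.3 with or without the exchange. There were 2 libraries of each, 8 in all, and each S28A genotype was compared with the genotype of the same histone without it. The labels give all plants as seedlings 2 weeks old, while the extraction text speaks of closed buds, and the growth text names both long and short days without saying which was used. The labels do not say how the lines were made, which other histone H3 genes the plants still carried, or whether libraries of a genotype came from separate groups of plants. The p-values therefore measure the spread between these libraries only, which may be technical.

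Total gene counts were 12865999 to 24449528 per library, and the 10 expansin genes together took 0.0536% to 0.0927% of them. Leaf markers (RBCS1A, RCA and 4 light-harvesting genes) summed to 63330 to 78680 CPM (reads of a gene relative to library size) in every library. The 6 root markers summed to 9.71 to 21.2 CPM. Most of that was PHO1, with genotype means of 9.4 to 19.9 CPM, while COBL9, PRP3 and IRT1 had at most 8 counts in a genotype. By the edgeR test described below, PHO1 was lower in both S28A genotypes. Its log2 fold change was −0.82 against H3.1 (adjusted p = 0.00871) and −0.98 against H3.3 (adjusted p = 0.000142). NRT2.1 went the other way in H3.3S28A (2.21, adjusted p = 0.0113), with 47 counts against 13. RHD2 did not pass there (−0.51, adjusted p = 0.661). The sum thus mainly shows PHO1. How much root the samples held was not tested. Flower markers stood apart. Summed over 8 such genes, the H3.1 libraries had 2.55 and 2.58 CPM, the H3.1S28A libraries 67.9 and 11.02, the H3.3 libraries 0.607 and 0.828 and the H3.3S28A libraries 186 and 176, while the anther genes A9 and ATA7 had no count outside H3.1S28A replicate 1, where each had 3. H3.3S28A replicate 2 carried 0.858% chloroplast counts against 0.0520% to 0.143% elsewhere. The leaf markers thus showed green tissue in all libraries, and alone they cannot tell seedlings from the closed buds of the extraction text. Of the flower markers, AP3 had 1 count over the H3.1 libraries and 0 over the H3.3 libraries, and PI had 13 and 5. Over the H3.1S28A and H3.3S28A libraries AP3 had 17 and 339 counts, and PI had 42 and 668. Which tissue was used was not tested. Whether the leaves were growing has no marker of its own here.

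Levels below are CPM scaled by TMM over all 8 libraries together, fold changes come from the fit of each pair, and p-values are from the quasi-likelihood test of edgeR, adjusted over all genes tested. In RNA of mixed cell types, fewer cells of a type and less RNA per cell cannot be told apart.

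The expansin genes differed widely among themselves in level. EXPA1 was the most abundant per length, at 164 CPM per kilobase of gene span as the mean of the 8 libraries, and EXPA6 followed at 46.7. EXPA11, EXPA8, EXPA5 and EXPA10 lay between 31.2 and 34.9 CPM per kilobase, EXPA4 at 20.7, EXPA3 at 12.9, EXLA1 at 12.2 and EXLA2 at 5.57. Gene span includes introns, so these are approximate. EXPA1 alone took 32.2% to 47.2% of the 10 genes' counts in a library, and EXLA1 took 0.324% to 2.67%. Summed over the 10 genes, the H3.1 libraries had 800.4 and 805.5 CPM, the H3.1S28A libraries 768 and 729, the H3.3 libraries 554 and 524, and the H3.3S28A libraries 881 and 939. The sum was thus lowest in H3.3 and highest in H3.3S28A, and no libraries of different genotypes overlapped.

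**Figure D1:**
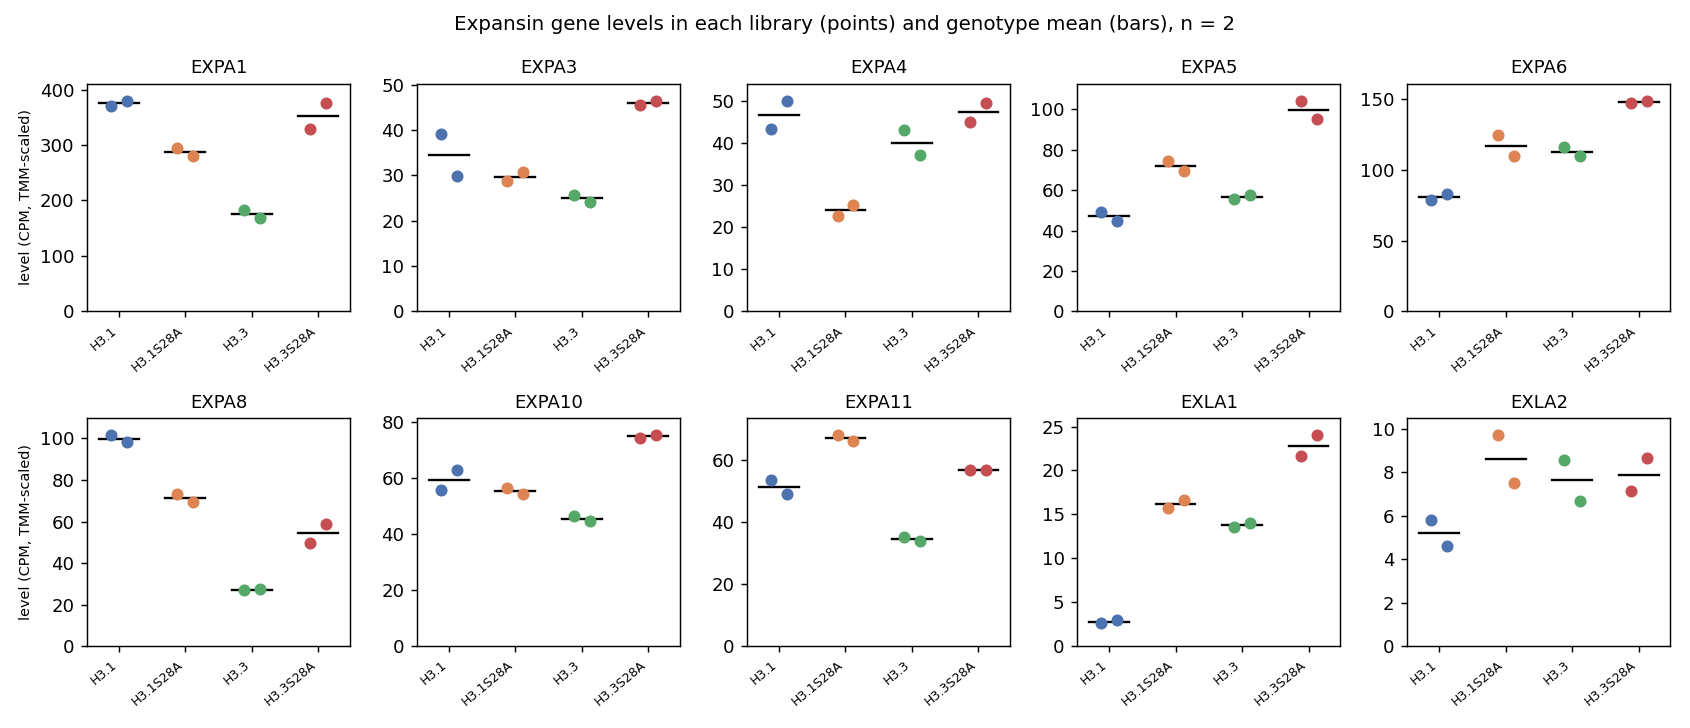
Level of each of the 10 expansin genes in each library (vertical axis, TMM-scaled CPM from 0, a scale of its own for each gene), grouped by genotype, with 1 point per library and a bar at the mean of 2. By their means, EXPA1 and EXPA8 stood highest in H3.1 and lowest in H3.3, while EXLA1 was at 2.59 and 2.98 CPM in H3.1 and above 13 CPM in every other library.

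In the first comparison, H3.1S28A against H3.1, the expansin genes moved in both directions. Of the 9 genes other than EXLA1, EXPA5, EXPA6, EXPA11 and EXLA2 were higher in H3.1S28A, EXPA1, EXPA4 and EXPA8 were lower, and EXPA3 and EXPA10 did not pass the test. Over all 18974 genes tested, 13.5% were called, 8.23% higher and 5.26% lower. The 9 genes had a median log2 fold change of −0.09, against −0.01 over all genes tested. Without H3.1 replicate 2, the higher count fell to 2, EXPA5 and EXPA6. Without H3.1S28A replicate 1, which had the higher flower marker sum, 3 genes were higher and 2 lower.

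The lower genes were led by EXPA4. Its level was 43.4 and 50.2 CPM in H3.1, against 22.8 and 25.4 CPM in H3.1S28A, a log2 fold change of −0.95 (SE 0.12, adjusted p = 0.000276), or 1.94-fold lower. Both H3.1S28A libraries were below both H3.1 libraries and below every H3.3 and H3.3S28A library. EXPA8 was at 101.5 and 98.1 CPM in H3.1, against 73.3 and 69.4 CPM in H3.1S28A, a log2 fold change of −0.48 (SE 0.10, adjusted p = 0.008). Its libraries did not overlap either, but without H3.1 replicate 1 the adjusted p was 0.0538. EXPA1, which in guard cells is linked to the opening of stomata, was at 371 and 380 CPM in H3.1, against 294 and 280 CPM in H3.1S28A, with a log2 fold change of −0.39 (SE 0.10, adjusted p = 0.0198). The groups were apart, yet it missed the threshold without H3.1 replicate 2 (adjusted p = 0.0701), H3.1S28A replicate 1 (0.0501) or H3.1S28A replicate 2 (0.103).

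Among the higher genes, EXPA5 is known from growth responses to brassinosteroids. It was at 49.0 and 44.9 CPM in H3.1, against 74.4 and 69.4 CPM in H3.1S28A, a log2 fold change of 0.61 (SE 0.11, adjusted p = 0.00274). EXPA6 was at 78.9 and 82.9 CPM in H3.1, against 125 and 109.6 CPM in H3.1S28A, a log2 fold change of 0.53 (SE 0.11, adjusted p = 0.00613). In both genes each H3.1S28A library was above each H3.1 library, and the call held with any single library left out. EXPA11 was at 53.5 and 49.0 CPM in H3.1, against 68.0 and 66.2 CPM in H3.1S28A, a log2 fold change of 0.39 (SE 0.11, adjusted p = 0.0277). Its libraries were apart, and it missed the threshold without H3.1 replicate 1 (adjusted p = 0.0726) or replicate 2 (0.211).

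EXPA10, which promotes leaf growth, and EXPA3 gave overlapping libraries. EXPA10 was at 55.5 and 62.7 CPM in H3.1, against 56.5 and 54.3 CPM in H3.1S28A (log2 fold change −0.09, SE 0.11, adjusted p = 0.608). EXPA3 was at 39.2 and 29.9 CPM in H3.1, against 28.8 and 30.6 CPM in H3.1S28A (log2 fold change −0.21, SE 0.13, adjusted p = 0.307). A difference was not shown for either. In all, 7 of the 9 genes had H3.1S28A libraries wholly above or wholly below the H3.1 libraries, 4 above and 3 below, beside 29.1% of all genes tested above and 28.9% below.

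Both expansin-like genes were higher in H3.1S28A, from far lower levels than the α-expansins. For EXLA1 this is the rise it was chosen for, so its values here are a description only. EXLA1 had 57 and 67 counts in the H3.1 libraries, against 224 and 392 in those of H3.1S28A, which is 2.59 and 2.98 CPM against 15.8 and 16.6 CPM. The log2 fold change was 2.54 (SE 0.18), or 5.81-fold. Leaving out 1 library at a time gave 2.44 to 2.64. EXLA2, whose loss in Arabidopsis is known to alter the response to the fungus Botrytis cinerea, was at 5.82 and 4.63 CPM in H3.1, against 9.71 and 7.50 CPM in H3.1S28A. Its log2 fold change was 0.71 (SE 0.20, adjusted p = 0.0356). The libraries were apart, but the call was lost with DESeq2 (adjusted p = 0.0858), without H3.1 replicate 2 (0.226) and without H3.1S28A replicate 1 (0.129).

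The second comparison, H3.3S28A against H3.3, gave 1 direction. All 10 genes were tested, 9 were higher in H3.3S28A, none was lower by edgeR (0 also at an unadjusted p under 0.05 and by DESeq2), and EXLA2 did not pass. Their median log2 fold change was 0.75, against 0.01 over all genes tested. This pair differed across the whole transcriptome, with 58.4% of the 19729 genes tested called, 28.8% higher and 29.7% lower. The count of 9 is to be read beside that 28.8%. With EXPA4 lost, 8 of the 10 genes were called higher without H3.3 replicate 1, without H3.3 replicate 2, and without H3.3S28A replicate 2, the library with more chloroplast counts.

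EXPA1 and EXPA8 had the highest fold changes. EXPA1 was at 183 and 169 CPM in H3.3, against 329 and 375 CPM in H3.3S28A, a log2 fold change of 1.03 (SE 0.08, adjusted p = 1.48e-06). EXPA8 was at 26.8 and 27.6 CPM in H3.3, against 49.9 and 58.6 CPM in H3.3S28A, a log2 fold change of 1.02 (SE 0.11, adjusted p = 1.47e-05). The genes were 2.04-fold and 2.03-fold higher in H3.3S28A, with no overlap of libraries, while both were lower in H3.1S28A than in H3.1. EXPA3 was at 25.6 and 24.2 CPM in H3.3, against 45.4 and 46.5 CPM in H3.3S28A, a log2 fold change of 0.91 (SE 0.10, adjusted p = 1.95e-05). EXPA10 was at 46.5 and 44.6 CPM in H3.3, against 74.4 and 75.2 CPM in H3.3S28A, a log2 fold change of 0.75 (SE 0.08, adjusted p = 1.97e-05). These are the genes whose libraries overlapped between H3.1 and H3.1S28A.

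The genes that rose in H3.1S28A also rose here, other than EXLA2. EXPA5 was at 55.4 and 57.6 CPM in H3.3, against 104 and 95.2 CPM in H3.3S28A, a log2 fold change of 0.85 (SE 0.08, adjusted p = 6.47e-06). EXPA11 was at 35.3 and 34.01 CPM in H3.3, against 56.9 and 56.7 CPM in H3.3S28A, a log2 fold change of 0.74 (SE 0.09, adjusted p = 4.27e-05). EXPA6 was at 116 and 109.9 CPM in H3.3, against 147 and 149 CPM in H3.3S28A, a log2 fold change of 0.42 (SE 0.07, adjusted p = 0.000255). In all 3 genes every H3.3S28A library lay above every H3.3 library. EXPA4 was at 43.1 and 37.2 CPM in H3.3, against 45.0 and 49.7 CPM in H3.3S28A, a log2 fold change of 0.27 (SE 0.11, adjusted p = 0.0498). Its libraries were narrowly apart, and the call was at the threshold. DESeq2 gave an adjusted p of 0.083, and leaving out H3.3 replicate 1 gave 0.0808, H3.3 replicate 2 gave 0.426 and H3.3S28A replicate 2 gave 0.123.

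EXLA1 had 269 and 270 counts in the H3.3 libraries, against 418 and 305 in those of H3.3S28A, or 13.6 and 14.0 CPM against 21.6 and 24.0 CPM. This pair was not used to choose the gene, and its log2 fold change was 0.75 (SE 0.12, adjusted p = 0.000303), with both H3.3S28A libraries above both H3.3 libraries. With the trend of fold change by gene span taken out, its value was 0.21 and the call was lost (adjusted p = 0.159). EXLA2 was at 8.59 and 6.68 CPM in H3.3, against 7.14 and 8.66 CPM in H3.3S28A, a log2 fold change of 0.07 (SE 0.20, adjusted p = 0.787), with overlapping libraries. So 9 of the 10 genes had H3.3S28A libraries wholly above the H3.3 libraries, beside 38.2% of all genes tested, and 41.4% of all genes tested had them wholly below.

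**Figure D2:**
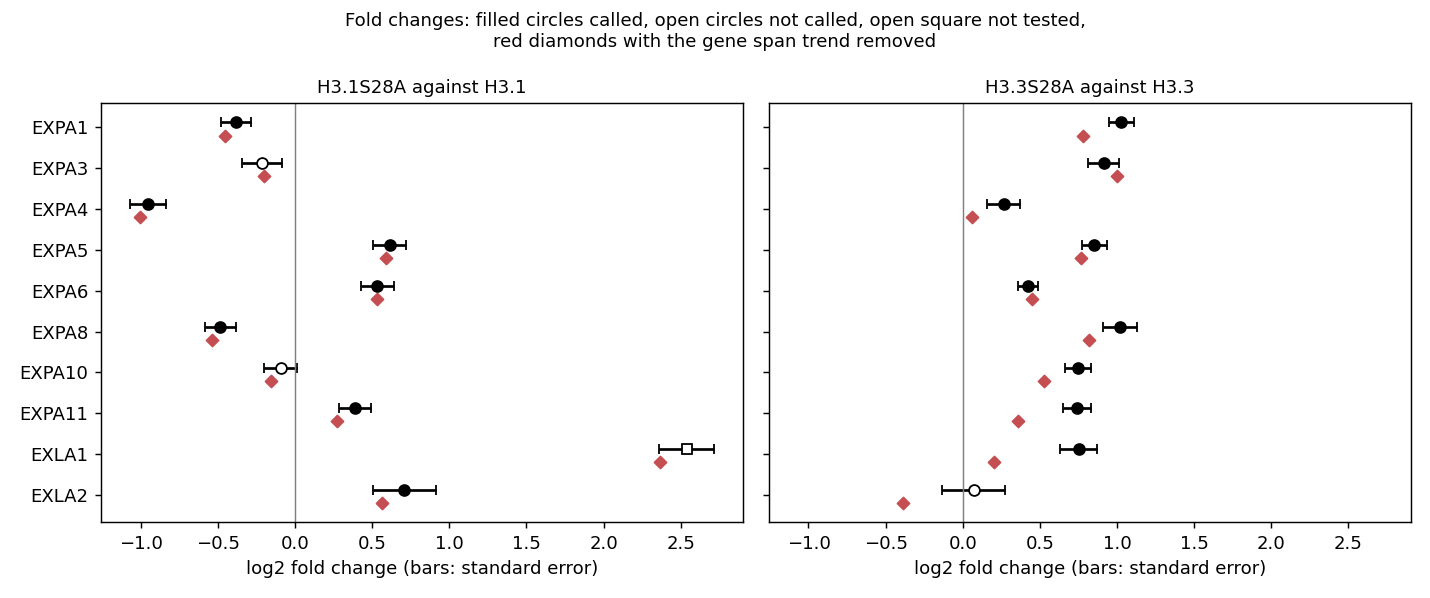
Log2 fold change of the 10 expansin genes in H3.1S28A against H3.1 and in H3.3S28A against H3.3 (points with bars of 1 SE, n = 2 libraries per genotype; filled where called, open where not, a square for EXLA1 where it was not tested), with red diamonds for the value after the trend by gene span was removed. In the H3.1 pair the points lie on both sides of 0, from −0.95 for EXPA4 to 2.54 for EXLA1, and in the H3.3 pair they run from 0.07 for EXLA2 to 1.03 for EXPA1.

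Fold changes in the H3.3 pair followed gene span, and the expansin genes are short. The rank correlation between log2 fold change and span across genes, which are not independent replicates, was −0.524 in the H3.3 pair and −0.218 in the H3.1 pair. The 10 expansin genes span 1143 to 2617 bases. Among the 9373 genes of that range, 37.9% were higher and 15.2% lower in H3.3S28A, with a median log2 fold change of 0.23, whereas genes above it had a median of −0.46. With the trend by span taken out of each library, 7 of the 10 genes stayed called higher, beside 26.6% of all genes tested higher and 23.3% lower under the same step. EXPA4 (log2 fold change 0.06, adjusted p = 0.633), EXLA1 (0.21, adjusted p = 0.159) and EXLA2 (−0.39, adjusted p = 0.128) did not pass. EXPA3 was at 1.00, EXPA8 at 0.82, EXPA1 at 0.78, EXPA5 at 0.76, EXPA10 at 0.53, EXPA6 at 0.45 and EXPA11 at 0.36. In the H3.1 pair the same step left EXPA4, EXPA8 and EXPA1 lower and EXPA5 and EXPA6 higher, ended the calls of EXPA11 (0.27, adjusted p = 0.0944) and EXLA2 (0.56, adjusted p = 0.0844), and put EXLA1 at 2.37. Within a genotype, the log ratio of replicate 1 to replicate 2 had rank correlations with span of −0.187 to 0.177. What lies behind the trend was not tested.

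**Figure D3:**
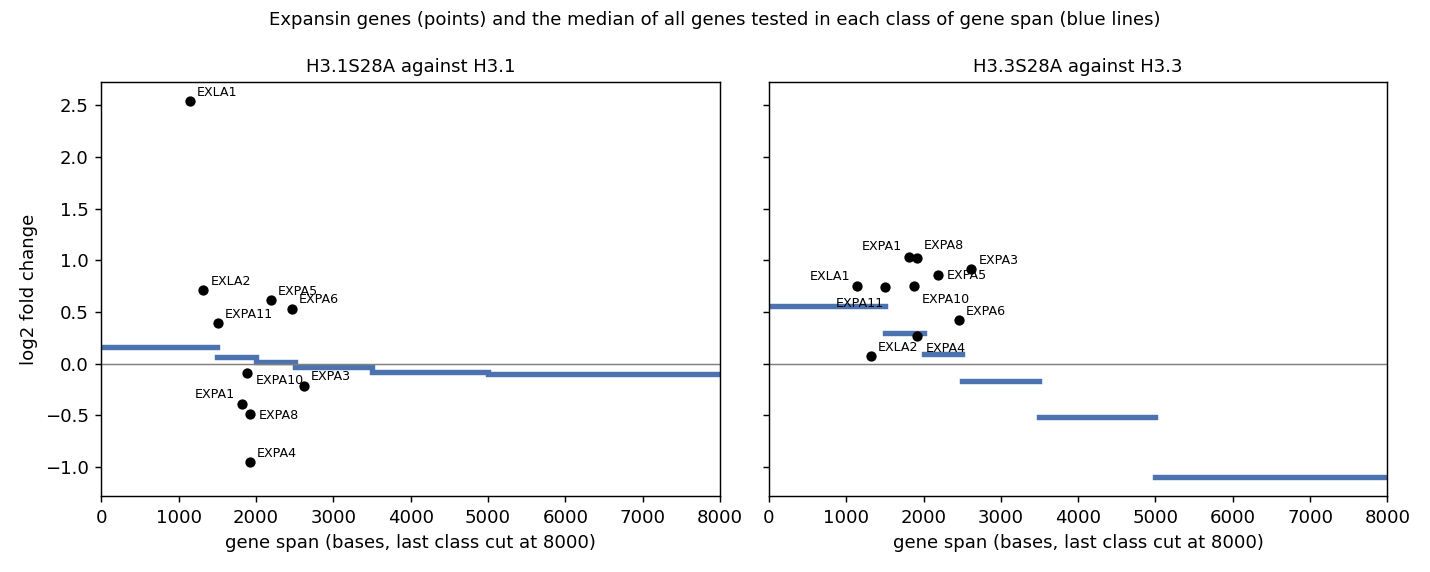
Log2 fold change against gene span in bases (points, the 10 expansin genes) with the median of all genes tested in each of 6 span classes (blue lines), for the H3.1 pair (left) and the H3.3 pair (right). In the H3.3 pair the class medians run from 0.56 for genes of up to 1500 bases to −1.10 for those over 5000 bases, and 8 of the 10 expansin genes lie above the median of their class.

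The difference between the comparisons was then tested on all 8 libraries, by taking the effect of H3.3S28A from that of H3.1S28A. The pairs share no library and are in separate count tables, and the labels do not say how the lines were made. A difference between pairs therefore cannot be assigned to the histone rather than to the lines. EXPA8 (log2 difference −1.48, SE 0.14, adjusted p = 6.48e-06), EXPA1 (−1.39, SE 0.12, adjusted p = 4.49e-06), EXPA4 (−1.19, SE 0.16, adjusted p = 0.000112), EXPA3 (−1.10, SE 0.18, adjusted p = 0.000342) and EXPA10 (−0.81, SE 0.13, adjusted p = 0.000336) had a lower effect in H3.1S28A. These are 5 of the 9 genes, beside 39% of the 20052 genes tested called, 14.6% lower and 24.4% higher. Over all genes, 62.5% of the calls were higher, and 50.3% with upper-quartile scaling. By edgeR 0 of the 9 were higher (1 at an unadjusted p under 0.05, and 0 by DESeq2). The 5 calls stayed when any single library was left out and when the trend by span was taken out.

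For the genes higher in both pairs, a difference in effect was not shown. EXPA5 gave −0.21 (SE 0.13, adjusted p = 0.223), EXPA6 0.14 (SE 0.12, adjusted p = 0.401) and EXPA11 −0.32 (SE 0.13, adjusted p = 0.0597). Scaling mattered here, since upper-quartile scaling called EXPA5 (−0.35, adjusted p = 0.0495) and EXPA11 (−0.47, adjusted p = 0.0122), and the scaling of DESeq2 within edgeR called EXPA11 (−0.38, adjusted p = 0.0304). EXLA2 gave 0.67 (SE 0.30, adjusted p = 0.0956), and was called only with the trend by span taken out (0.96, adjusted p = 0.0192). For EXLA1 the value was 1.81 (SE 0.20).

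The levels in H3.1 and H3.3 also differed, which is given as a description. These genotypes are in separate count tables, so a difference of genotype cannot be told from one of table. EXLA1 was 4.95-fold higher in H3.3 than in H3.1 and ran in the order H3.1, H3.3, H3.1S28A, H3.3S28A, over an 8.19-fold range with no overlap between neighbours. EXPA5 and EXPA6 ran in the same order over 2.12-fold and 1.83-fold, with H3.3 and H3.1S28A overlapping for EXPA6. EXLA2 was lowest in H3.1, and its libraries in H3.3, H3.3S28A and H3.1S28A could not be ordered beyond their spread.

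The other 6 genes were higher in H3.1 than in H3.3. EXPA8 was 3.66-fold higher in H3.1, with the order H3.3, H3.3S28A, H3.1S28A, H3.1 and no overlap. EXPA1 was 2.13-fold higher in H3.1, and its H3.3S28A libraries overlapped those of H3.1. EXPA11 was 1.48-fold higher in H3.1 and highest in H3.1S28A, with all 4 genotypes apart. For EXPA3 and EXPA10, H3.3 was lowest and H3.3S28A highest, and H3.1S28A and H3.1 between them overlapped. EXPA4 was lowest in H3.1S28A, and H3.1 and H3.3S28A, its highest genotypes, overlapped. Across the 8 libraries, which fall into 4 genotypes and 2 tables, Pearson's r of log2 levels was 0.95 for EXPA6 with EXLA1, 0.92 for EXPA5 with EXPA6, 0.88 for EXPA1 with EXPA8 and 0.88 for EXPA3 with EXPA10, and −0.57 for EXPA8 with EXLA1.

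Some of the markers of single cell types moved with these genes. The 6 guard cell markers summed to 106 and 101 CPM in the H3.1 libraries, 118 and 106 in the H3.1S28A libraries, 52.1 and 47.5 in the H3.3 libraries and 101 and 103 in the H3.3S28A libraries, and so were lowest where EXPA1 was lowest. Most of the rise of this sum in the H3.3 pair was GC1, whose mean went from 8.82 CPM in H3.3 to 52.1 CPM in H3.3S28A. In the H3.3 pair GC1 (log2 fold change 2.59), MYB60 (1.13) and OST1 (0.77) were higher and KAT1 was lower (−1.49). FAMA (0.05, adjusted p = 0.785) and HT1 (0.60, adjusted p = 0.378) did not pass. In the H3.1 pair GC1 was the 1 marker of 6 called (0.91, adjusted p = 0.000407), while EXPA1 was lower. Flower markers, given above, were highest in H3.3S28A, the genotype in which 6 of the 10 expansin genes (EXPA3, EXPA4, EXPA5, EXPA6, EXPA10 and EXLA1) had their highest mean. The 6 markers of the shoot meristem and dividing cells summed to 21.6 and 24.4 CPM in the H3.1 libraries, 15.1 and 12.6 in the H3.1S28A libraries, 18.1 and 22.3 in the H3.3 libraries and 21.5 and 19.8 in the H3.3S28A libraries. In the H3.1 pair STM (log2 fold change −1.54) and KNAT1 (−2.45) were lower and CYCB1;1 (−0.39, adjusted p = 0.0861) and CUC2 (−0.39, adjusted p = 0.769) did not pass. In the H3.3 pair STM (1.40) and CUC2 (2.19) were higher and KNAT1 (−0.63) and CYCB1;1 (−0.82) lower, while WUS and CLV3, with at most 10 counts in a library, were tested in neither pair. The part of guard cell, flower or meristem RNA in the expansin levels was not tested.

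**Figure D4:**
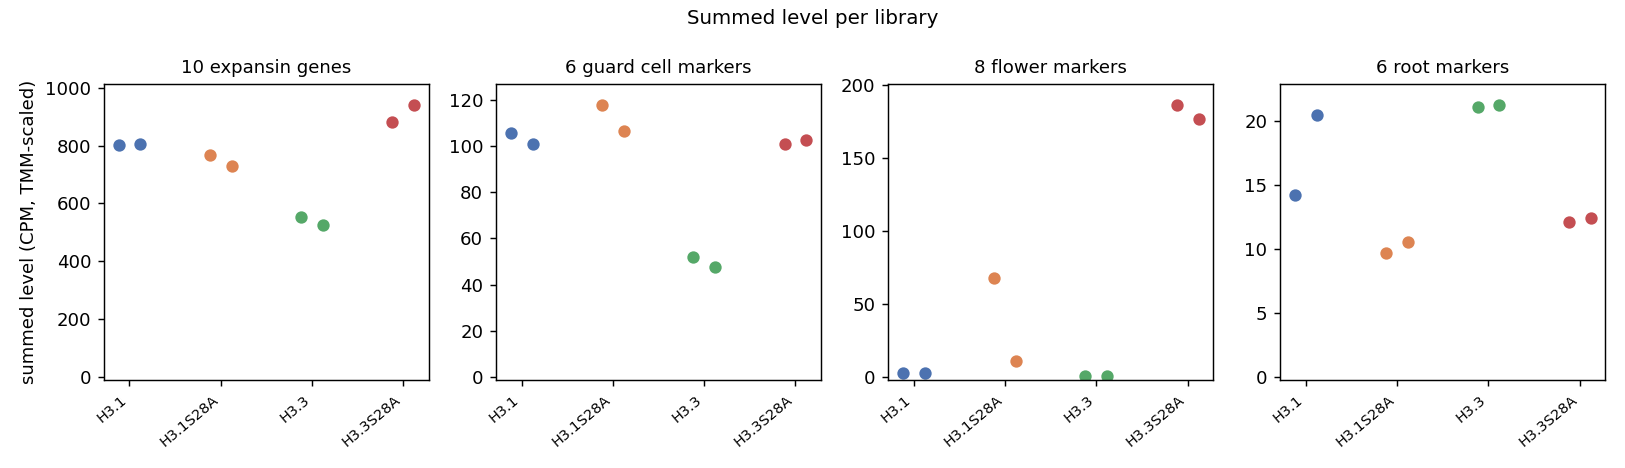
Summed level (vertical axes, TMM-scaled CPM, each panel on its own scale, 1 point per library) of the 10 expansin genes and of 6 guard cell, 8 flower and 6 root markers, by genotype. The expansin sum ran from 524 CPM in H3.3 to 939 CPM in H3.3S28A, the guard cell markers from 47.5 to 118 CPM, and the flower markers from 0.607 to 186 CPM.

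The 10 genes made up most of the family's RNA in these libraries. Of 36 Arabidopsis expansin genes listed, 35 were in the tables (EXPA19 was not analysed here), and the 10 took 81.2% to 89.6% of the family's counts in each library. Of all 35, 13 had at most 10 counts over the 8 libraries and 6 had none, among them the root hair gene EXPA7. EXPA18, the other root hair expansin, had 4 counts in H3.3 replicate 1, 1 in H3.3S28A replicate 1 and none elsewhere.

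In the H3.1 pair, 10 of the other expansins could be tested. By edgeR 0 were higher (0 at an unadjusted p under 0.05, and 0 by DESeq2) and 2 were lower. Over all genes tested 8.23% were higher and 5.26% lower. The median log2 fold change of the other expansins was −0.22, against −0.01 over all genes tested. EXPA15 was at 30.5 and 28.7 CPM in H3.1, against 11.3 and 19.8 CPM in H3.1S28A (log2 fold change −0.90, adjusted p = 0.0071). The β-expansin EXPB3 was at 39.4 and 39.7 CPM in H3.1, against 18.2 and 27.04 CPM in H3.1S28A (log2 fold change −0.79, adjusted p = 0.00418). In both genes the lower H3.1S28A library was replicate 1, which also had the higher flower marker sum, and leaving out single libraries gave −1.38 to −0.58 for EXPA15 and −1.11 to −0.55 for EXPB3, all called.

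In the H3.3 pair, 12 were tested, 3 were higher and 1 lower, with a median log2 fold change of 0.42, beside 28.8% higher and 29.7% lower over all genes tested. DESeq2 called 1 higher and 0 lower, and 1 was higher and 1 lower with the trend by span taken out. EXPA9 was at 18.2 and 12.8 CPM in H3.3, against 26.6 and 23.6 CPM in H3.3S28A (log2 fold change 0.72, adjusted p = 0.00248), and EXPA13 was at 15.8 and 14.9 against 18.4 and 20.2 CPM (0.36, adjusted p = 0.0275). EXPA21 was called on few counts, 2 and 4 against 12 and 9 (2.08, adjusted p = 0.0402), and EXPB1 was lower (−0.55, adjusted p = 0.0492). Some of these calls rested on single libraries. EXPA13 and EXPB1 missed the threshold when some single libraries were left out, with log2 fold changes of 0.29 to 0.43 and −0.86 to −0.33. EXPA21 missed it whichever library was left out, at 1.63 to 2.63. EXPB3 (log2 fold change 0.00, adjusted p = 0.996) and EXPA15 (0.12, adjusted p = 0.341) did not pass in this pair.

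EXLA3, which lies beside EXLA1 with no protein-coding gene between them in the annotation used, had few counts, with 7 and 4 for H3.1, 9 and 12 for H3.1S28A, 4 and 6 for H3.3, then 11 and 9 for H3.3S28A. Its log2 fold changes of 1.16 (adjusted p = 0.265) and 1.31 (adjusted p = 0.136) did not pass in either pair. The 3 EXLA genes are close in sequence, and reads shared between them could have been lost or split by the counting.

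**Figure D5:**
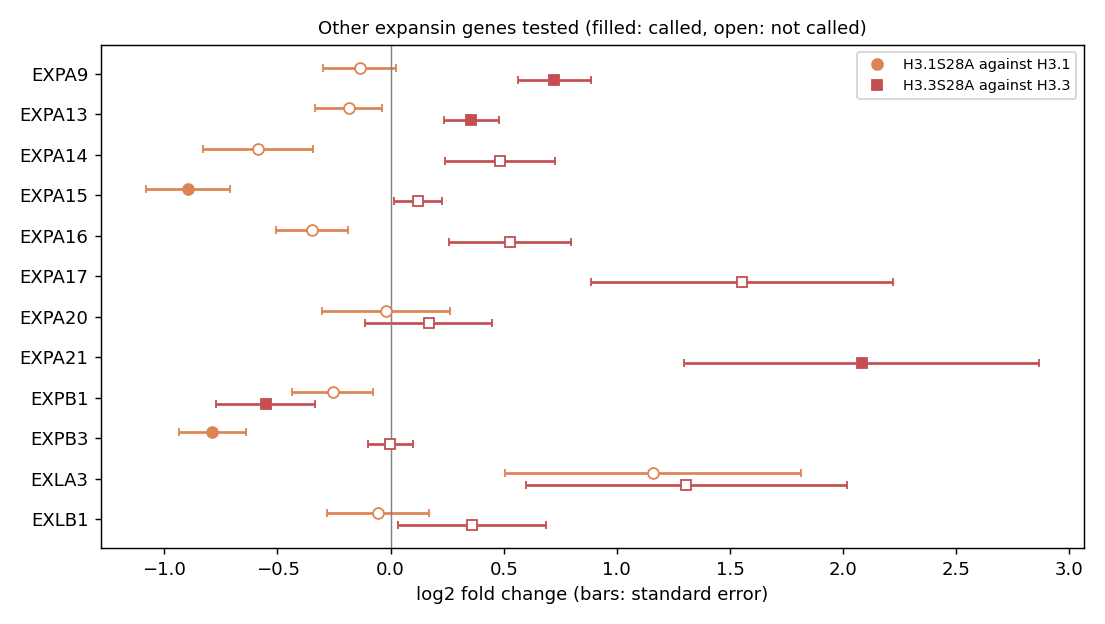
Log2 fold change of the expansin genes outside the 10 that could be tested, in the H3.1 pair and the H3.3 pair (points with bars of 1 SE, n = 2 libraries per genotype, filled where called and open where not). EXPA15 and EXPB3 lie at −0.90 and −0.79 in the H3.1 pair and at 0.12 and 0.00 in the H3.3 pair.

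In acid growth, auxin makes proton pumps acidify the wall, and expansins act at that pH. Of 12 acid growth genes (plasma membrane proton pumps AHA, the auxin-linked receptor kinases TMK, auxin receptors and auxin response factors), 4 were higher and 4 lower in H3.1S28A, with a median log2 fold change of −0.08, beside 8.23% higher and 5.26% lower over all genes. With the trend by span taken out 4 were higher and 2 lower. The kinase gene TMK1 was higher (0.54, adjusted p = 0.00398), and the auxin response factors ARF7 (−0.48, adjusted p = 0.0111) and ARF6 (−0.50, adjusted p = 0.0114) were lower. In H3.3S28A 8 were lower and 0 higher by edgeR (0 also at an unadjusted p under 0.05 and by DESeq2), with a median of −0.65, but with the trend by span taken out 5 were higher and 6 lower. Over all genes tested 29.7% were lower in H3.3S28A, and 56.9% of those spanning 3500 to 5000 bases and 81.7% of those over 5000 bases. The pump genes AHA3 (−1.67, adjusted p = 2.93e-08) and AHA11 (−1.34, adjusted p = 7.35e-06) and TMK1 (−1.06, adjusted p = 6.91e-06) were lower, and stayed so at −0.71, −0.34 and −0.70 with the trend taken out. These genes span 3131 to 6109 bases, all longer than the expansin genes.

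Genes of primary wall synthesis showed the same dependence. Of 15, 2 were higher in H3.1S28A, the cellulose synthase genes CESA6 (0.42, adjusted p = 0.0239) and CESA3 (0.37, adjusted p = 0.0319). By edgeR 0 were lower (2 at an unadjusted p under 0.05, and 0 by DESeq2). These counts stand beside 8.23% higher and 5.26% lower over all genes tested. In H3.3S28A 3 were higher and 8 lower, beside 28.8% and 29.7% over all genes, yet 9 higher and 1 lower with the trend by span taken out. The median log2 fold change was 0.12 in the H3.1 pair and −0.26 in the H3.3 pair, where it was 0.41 with the trend taken out. CSI1, which links cellulose synthase to microtubules, was lower (−1.41, adjusted p = 2.42e-06) and moved to −0.05 (adjusted p = 0.699) with the trend taken out. The cellulose synthase gene CESA2 was lower (−0.86, adjusted p = 9.17e-06) and moved to 0.10 (adjusted p = 0.274). The pectin methylesterase gene PME3 was higher either way (0.62, adjusted p = 0.000103, and 0.98).

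Of 16 regulators of leaf growth, 6 were lower and 1 higher in H3.1S28A, beside 5.26% lower and 8.23% higher over all genes tested. Their median log2 fold change was −0.26, and the counts stayed at 6 and 1 with the trend by span taken out. GRF2 (−0.87, adjusted p = 0.000881), GRF3 (−0.64, adjusted p = 0.00331) and ANT (−0.83, adjusted p = 0.00105), which promote cell proliferation in young leaves, were lower. In H3.3S28A 3 were higher and 4 lower, beside 28.8% and 29.7% over all genes tested. With the trend by span taken out, 4 were higher and 5 lower. GRF2 (−1.22, adjusted p = 0.00039) and ANT (−0.79, adjusted p = 0.000402) were lower. GRF3 was not called there (0.23, adjusted p = 0.0664), and was higher with the trend by span taken out (0.46, adjusted p = 0.00223). IBH1, which restrains brassinosteroid growth, was higher (1.56, adjusted p = 6.08e-05). PRE1 (1.32, adjusted p = 0.00117) and RGA (0.27, adjusted p = 0.0115) were also called higher.

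By pattern over the 8 libraries, the genes most like EXLA1 among 11559 genes of at least 10 CPM on average were CSDP1 (AT4G36020, Pearson's r of log2 levels 0.996), AT3G50685, AT3G15810 and AT5G16470 (each 0.993) and AT4G15790 (0.992). Those most like the sum of the 10 genes were LSH10 (AT2G42610, 0.985), PDC2 (AT5G54960, 0.984), AGL24 (AT4G24540, 0.983), AT5G55620 (0.983) and AT5G51570 (0.980). CSDP1 ran from 24.3 to 45.6 CPM and LSH10 from 11.2 to 32.9 CPM over the libraries. With 4 genotypes of 2 libraries each, such values rest on few independent points.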

How the data were processed

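Each gene's raw read counts were deposited by the authors in 2 tables, 1 for the H3.1 pair and 1 for the H3.3 pair, which were joined by gene identifier. The tools named are HISAT2, Subread and DESeq2, on build TAIR10, per the submitters' processing notes. Versions, annotation, strand setting and the handling of reads with several matches were not given in the sources used here. Hence genes with close relatives or overlapping neighbours are uncertain. Columns were assigned by name. Those of H3.1 were taken as its replicates 1 and 2, and the word new in the H3.1S28A column names is not explained. The 30 chromatin libraries are not analysed here.

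The 10 genes, the lists and the rules were chosen with earlier results of these data known. All 10 genes were named, then other expansins called in either pair with EXLA3, EXPB3, EXPA15, EXPA7 and EXPA18. Up to 3 called genes of each growth list per pair followed, with PRE1, RGA and, in the H3.3 pair, GRF3 besides. The 5 genes most like EXLA1 or the sum in pattern were named too.

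Each pair was tested within its table with edgeR 4.0.16 in R 4.3.3 (limma 3.58.1; TMM, filterByExpr by group, glmQLFit, glmQLFTest, Benjamini-Hochberg adjustment, threshold 0.05), and all 10 genes passed the filter on low counts in each fit. The difference between pairs was an interaction contrast over all 8 libraries. The SE divides the size of the log2 fold change by the root of F. Levels are TMM-scaled CPM over all 8 libraries, and correlations used log2(CPM + 0.5). Across the tables, levels compare libraries of separate tables. A count of 0 allows up to 0.123 to 0.233 CPM (3 counts of a library, counting error only). The method was also run on simulated counts with a fixed spread between libraries and no trend by gene span. That run cannot check the calls under such a trend. Symbols and spans came from a RefSeq table of TAIR10.1, which held 26719 of the 27416 genes (97.5%). Its coordinates are not printed, since the builds differ. The alternatives were upper-quartile and DESeq2 scaling, DESeq2 1.42.0, no filter, a replicate block, 1 fit for all libraries, removal of the trend with gene span (lowess, span 0.3) and leaving out each library.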

Additional observations from a re-analysis of the deposited data

Results flagged for a closer look

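For 11 expansin genes the effect of S28A differed between the histones by the interaction test in edgeR, each with a lower effect in the H3.1 pair than in the H3.3 pair. Over the 20052 genes tested, 39% were called, 14.6% lower and 24.4% higher. Among the 10 genes described above these were EXPA8 (log2 difference −1.48), EXPA1 (−1.39), EXPA4 (−1.19), EXPA3 (−1.10) and EXPA10 (−0.81). EXPA1, EXPA4 and EXPA8 were called in opposite directions in the pairs. EXPA4 was the least firm of these, since its call in the H3.3 pair was lost under several alternatives.

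The others were EXPA14 (−1.04, adjusted p = 0.036), EXPA15 (−0.99, adjusted p = 0.00809), EXPA16 (−0.84, adjusted p = 0.026), EXPA9 (−0.83, adjusted p = 0.021), EXPB3 (−0.76, adjusted p = 0.00994) and EXPA13 (−0.51, adjusted p = 0.0415). EXPA14, known from lateral roots, had 5.23 and 6.58 CPM (H3.1), 4.86 and 3.18 (H3.1S28A), 3.44 and 4.50 (H3.3) or 5.38 and 5.51 (H3.3S28A). EXPA16 had 15.5 and 12.2 CPM (H3.1), 10.9 and 10.8 (H3.1S28A), 3.29 and 2.85 (H3.3) or 3.93 and 4.8 (H3.3S28A). Neither was called in a single pair. Leaving out single libraries ended the interaction calls of EXPA9, EXPA13, EXPA14 and EXPA16 (adjusted p up to 0.0992, 0.139, 0.147 and 0.118), while those of EXPA15 and EXPB3 held. DESeq2 called 4 of these 6, without EXPA13 (adjusted p = 0.0759) and EXPA14 (0.051). With the trend by gene span removed 3 of the 6 were called, without EXPA13 (0.104), EXPA14 (0.0514) and EXPA16 (0.093).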

How the results depend on the processing

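Under the alternatives tried, every expansin gene of the 10 that was called in a pair kept its direction. The whole H3.1 pair was the less settled: against 1562 genes higher and 998 lower, DESeq2 called 601 lower, and leaving out 1 library gave 777 to 1966 higher and 375 to 1514 lower, the fewest without H3.1 replicate 2 and the most without H3.1S28A replicate 2. Of the 9 expansin genes other than EXLA1, 4 were higher there, 2 with the trend by span removed, and 2 to 4 with a library left out. In the interaction 1 was higher with the trend removed, against 0. With a lone library left in a genotype, that library is assumed to vary like the others. Upper-quartile scaling moved the median of all genes from 0.01 to 0.12 in the H3.3 pair and from 0.07 to −0.07 in the interaction, so log2 values there shift by about as much. The 13 expansin genes with at most 10 counts over the 8 libraries did not pass the filter on low counts.

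Signs turned only for values that passed no test. With the trend by span removed, EXLA2 (−0.39) and EXPA15 (−0.10) turned in the H3.3 pair and EXLA3 (0.14) in the interaction. EXPB3 in the H3.3 pair, at 0.00, gave 0.007 with RLE scaling, 0.11 with upper-quartile scaling, 0.006 with DESeq2 and 0.042 with the trend removed. EXPA6 in the interaction gave −0.002 with upper-quartile scaling. Leaving out single libraries gave −0.32 to 0.048 for EXPA9 in the H3.1 pair, −0.12 to 0.23 for EXLA2 and −0.054 to 0.04 for EXPB3 in the H3.3 pair, and −0.029 to 0.605 for EXPB1 and −0.46 to 0.35 for EXLA3 in the interaction. The cause was not tested.

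No pairing of libraries by replicate number was seen, as deviations of equal numbers correlated at −0.009 in the H3.1 pair and 0.025 in the H3.3 pair. With 2 libraries per genotype, these values cannot exclude a pairing. With the replicate number as a block, 2836, 11472 and 7527 genes were called in the H3.1 pair, the H3.3 pair and the interaction, against 2560, 11529 and 7829. Of the 10 genes, only EXPA4 in the H3.3 pair lost its call under the block (0.27, adjusted p = 0.0551). Of the other expansins, EXPA21 in the H3.3 pair (adjusted p = 0.0684) and EXPA13 in the interaction (adjusted p = 0.0555) did.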
